A study of Homo sapiens with 2 samples.

Results

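The unfolded protein response and the integrated stress response were described here through 33 genes, taken by RefSeq symbol and placed in 4 arms. The arms were PERK and ATF4 (11 genes), IRE1 and XBP1 (7 genes), ATF6 (5 genes) and the chaperones and oxidoreductases of the endoplasmic reticulum (ER; 10 genes). They were set against all 19974 protein-coding genes of the autosomes and chromosome X. The data were ChIP-seq peak lists of H4K5ac, acetylation of lysine 5 on histone H4, a mark found at active promoters and enhancers. One list came from FaDu cells, an established head and neck cancer line, kept in hypoxia (1% O2 for 18 h), and the other from FaDu cells in normoxia. Both labels give H4K5ac as the target, while the design text of the series gives the antibody as H3K4Ac. Knockdown of METTL4 appears in the culture protocol without being tied to either library. With 1 library per condition no difference between conditions could be tested, intervals cover counting error only, and they say nothing of the spread between cultures.

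The unfolded protein response is started by a trio of sensors in the ER membrane. PERK phosphorylates the initiation factor eIF2α, which lowers translation in general and raises that of ATF4; GCN2 enters the same route when amino acids run short, and this shared route is the integrated stress response. IRE1 splices XBP1 mRNA into the form that encodes the active factor, and ATF6 moves to the Golgi, where proteases release its cytoplasmic part as a transcription factor. XBP1 and ATF6 act on genes for ER chaperones and for ER-associated degradation. Low oxygen is a known trigger of PERK in tumour cells, where this response is linked to survival in hypoxia.

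The libraries differed in the length of their lists. The hypoxia list held 258195 peaks over 99.9 Mb, against 120033 peaks over 59.2 Mb in the normoxia list, a ratio of 2.15 in peaks and 1.69 in covered bases. Of these, 48782 hypoxia peaks and 29967 normoxia peaks were strong, meaning a deposited −log10 q-value of at least 10. Read totals were not given in the sources used here. Of 10 squamous and epithelial marker genes, 10 had a gene-end peak in hypoxia and 9 in normoxia, the exception being TP63. Of 14 marker genes of other lineages, 9 had one in hypoxia and 3 in normoxia. A gene-end peak is no measure of expression, and the part of list length in the results below was not tested.

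The control elements of these promoters are shown first, since the position of the peaks around them is part of the results. The ER stress element (ERSE; CCAAT, any 9 bases, CCACG) binds ATF6 and XBP1 with the factor NF-Y. Its type II form (ERSE-II) is ATTGG, any base, CCACG. The amino acid response element (AARE, TGATGNAA) binds ATF4. The bases shown are the 250 upstream of the first listed start, 5′ to 3′ on the strand of the gene, from RefSeq (GRCh38.p14). Capitals mark a match on either strand to ERSE, ERSE-II or AARE. HSPA5, HSP90B1 and XBP1 were chosen for ERSE, HERPUD1 for an ERSE-II beside an AARE, and CHAC1 and ASNS for an AARE. The windows are HSPA5 chr9:125241344-125241593 (minus strand), HSP90B1 chr12:103930160-103930409 (plus strand), XBP1 chr22:28800570-28800819 (minus strand), HERPUD1 chr16:56931892-56932141 (plus strand), CHAC1 chr15:40953221-40953470 (plus strand) and ASNS chr7:97872409-97872658 (minus strand).
HSPA5: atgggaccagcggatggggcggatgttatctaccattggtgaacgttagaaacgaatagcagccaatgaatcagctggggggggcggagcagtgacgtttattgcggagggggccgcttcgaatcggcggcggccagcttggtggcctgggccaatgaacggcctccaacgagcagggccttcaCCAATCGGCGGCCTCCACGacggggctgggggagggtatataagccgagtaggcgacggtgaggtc
HSP90B1: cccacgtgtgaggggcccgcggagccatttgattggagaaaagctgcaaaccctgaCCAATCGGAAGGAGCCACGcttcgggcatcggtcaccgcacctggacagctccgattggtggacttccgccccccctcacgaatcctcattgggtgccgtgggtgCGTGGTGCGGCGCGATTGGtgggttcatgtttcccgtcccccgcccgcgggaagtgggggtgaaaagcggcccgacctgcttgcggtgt
XBP1: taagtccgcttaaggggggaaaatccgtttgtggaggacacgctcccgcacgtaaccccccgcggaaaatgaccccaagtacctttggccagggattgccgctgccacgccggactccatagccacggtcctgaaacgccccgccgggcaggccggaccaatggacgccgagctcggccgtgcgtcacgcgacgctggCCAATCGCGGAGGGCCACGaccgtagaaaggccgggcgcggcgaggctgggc
HERPUD1: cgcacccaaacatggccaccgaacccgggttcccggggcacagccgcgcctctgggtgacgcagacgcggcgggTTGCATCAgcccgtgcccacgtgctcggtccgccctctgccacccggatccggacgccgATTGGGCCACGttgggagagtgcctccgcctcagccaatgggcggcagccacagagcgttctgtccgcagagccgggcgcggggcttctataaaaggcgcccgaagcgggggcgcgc
CHAC1: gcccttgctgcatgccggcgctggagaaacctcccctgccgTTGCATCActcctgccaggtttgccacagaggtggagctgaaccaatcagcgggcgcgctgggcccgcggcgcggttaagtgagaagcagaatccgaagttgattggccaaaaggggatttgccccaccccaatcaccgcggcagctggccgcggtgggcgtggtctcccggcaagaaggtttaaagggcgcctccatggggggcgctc
ASNS: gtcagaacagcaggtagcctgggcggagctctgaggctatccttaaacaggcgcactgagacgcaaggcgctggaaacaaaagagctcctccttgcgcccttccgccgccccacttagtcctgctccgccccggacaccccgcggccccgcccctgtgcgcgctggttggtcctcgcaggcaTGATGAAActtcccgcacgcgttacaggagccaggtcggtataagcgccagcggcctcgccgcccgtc

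A gene was called marked when a peak reached, by at least 1 bp, into the window of 1000 bp before and after either end of the RefSeq span. In all, 32 of the 33 genes were marked in both conditions (97.0%, 95% exact binomial interval 84.2 to 99.9%). None was marked in hypoxia alone, none in normoxia alone, and 1 of 33, PDIA6, in neither. Of all genes, 69.3% had a gene-end peak in both lists, 11.7% in the hypoxia list alone, 1.08% in the normoxia list alone and 17.9% in no list. Thus the marked state was the same in each list for every gene of the 4 arms. A strong gene-end peak was present at 32 genes in hypoxia and at 32 in normoxia, against 66.4% and 60.1% of all genes. Both ends of the span were marked at 10 genes in hypoxia and 5 in normoxia, against 21.1% and 10.5% of all genes. The 5 genes at which a second end was marked in the hypoxia list alone were ERN1, EDEM1, ATF6, CALR and HSP90B1.

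A gene-end peak can lie at either end of transcription or belong to a neighbour, so the first listed RefSeq start was also used where there was one, which was for 32 of the 33 genes; PDIA3 had no entry. All 32 had a peak within 1000 bp of that start in both lists, against 69.2% of 15812 genes with a listed start. PDIA6, a protein disulfide isomerase, was among them, because its first listed start lies 5227 bp inside its span. There its peak was weak in hypoxia (31 reads at the summit, deposited fold 2.69) and in normoxia (21 reads, fold 2.77). Its second listed start carried strong peaks, with 144 summit reads and a deposited −log10 q of 85.2 in hypoxia, and 130 reads and 71.6 in normoxia. Some peaks lie within 1000 bp of an end of another gene too: that of ATF5 near IL4I1 and NUP62, those of DDIT3 near MBD6, those of DNAJB9 near THAP5, those of ATF6B near FKBPL, and those at the outer end of CANX near CBY3. For these peaks the signal cannot be assigned to 1 gene.

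**Figure D1:**
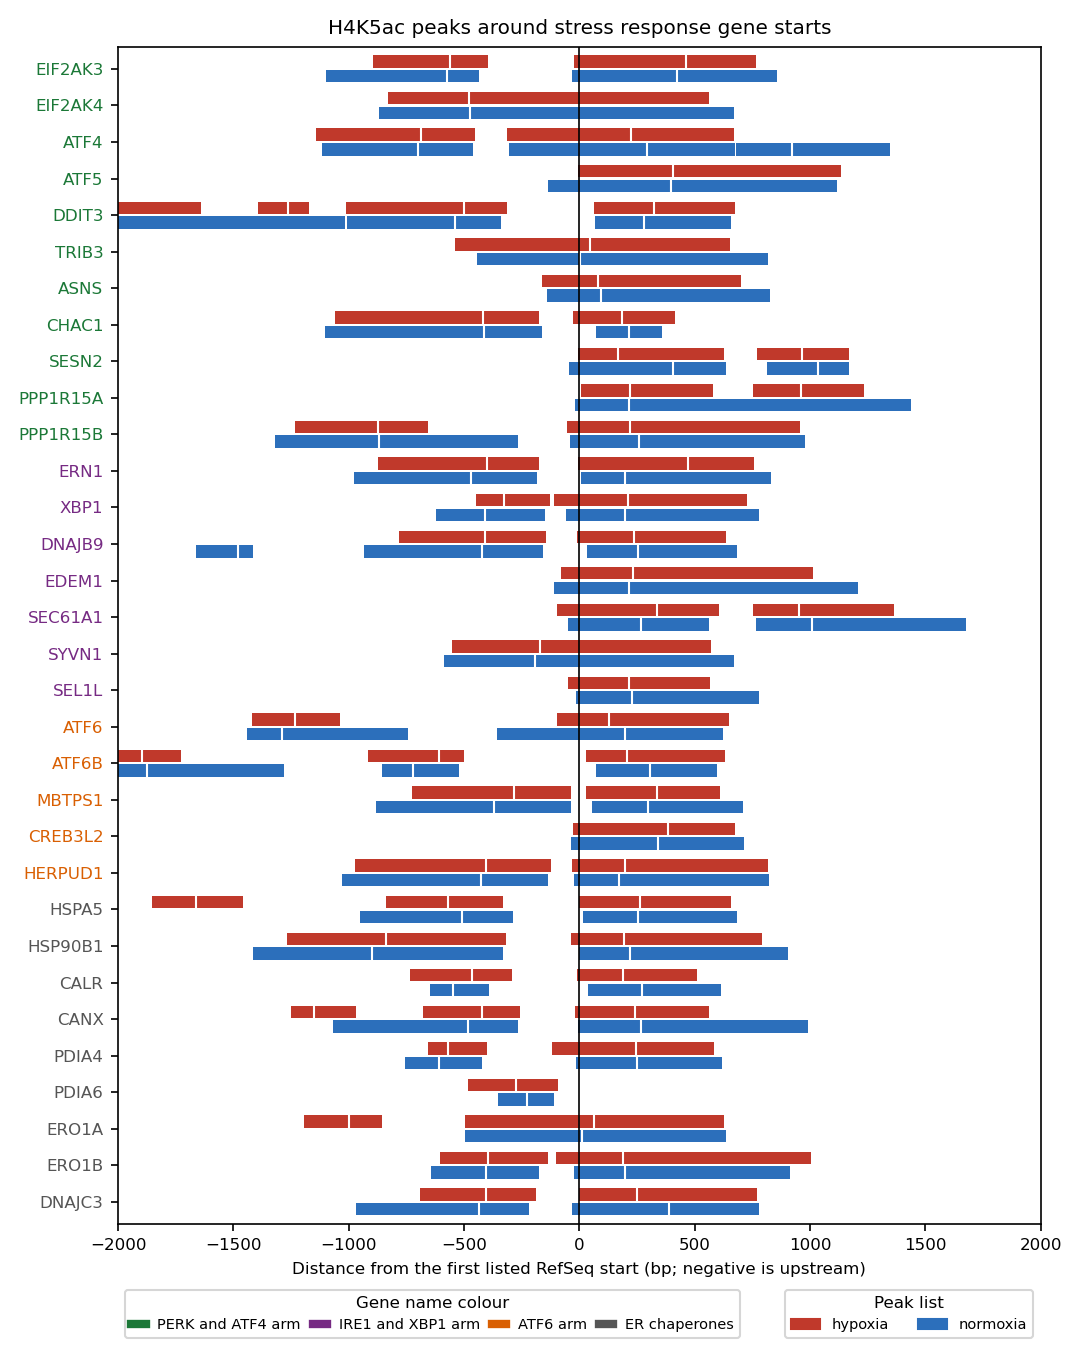
Peaks of each list within 2000 bp of the first listed RefSeq start of 32 stress response genes (x axis, bp; negative is upstream), with hypoxia above normoxia for each gene and white lines at summits. Most genes have a peak just downstream of the start in both lists, and many have a second one upstream with a gap between.

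Median positions were similar in the lists. The highest summit within 1000 bp of the start lay at a median of 192 bp downstream in hypoxia and 208 bp in normoxia, against 174 and 193 bp over all genes with a start peak in both lists. At DNAJC3, EIF2AK3 and ERO1B, however, it lay on opposite sides of the start in hypoxia and in normoxia. The EIF2AK3 summits of the normoxia list were close in height, with 47 reads upstream and 43 downstream. At DDIT3 the highest hypoxia summit lay at -498 bp. Its normoxia summits at 280 and -538 bp tied at 69 reads, so no side was the higher there. At 250 bp downstream, 96.9% of the 32 starts were under a peak in hypoxia and 96.9% in normoxia, against 66.7% and 61.8% of all starts. At 100 bp upstream the shares were 34.4% in hypoxia and 31.2% in normoxia, against 40.6% and 36.6% of all starts. At 500 bp upstream they were 56.2% and 59.4%, against 36.4% and 38.8% of all starts. In these shares, the dip between the upstream and the downstream maximum was deeper over the stress response genes than over all starts, in each list. All 32 genes had a start peak, whereas 12515 of the 15812 starts had one in hypoxia and 11086 in normoxia. The shares of all starts include those without a peak, and the part of this in the contrasts was not tested.

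Of the 32 genes, 19 had summits on both sides of the start in hypoxia and 19 in normoxia (59.4% in each, interval 40.6 to 76.3%). Among all genes with a start peak, 36.8% had this form in hypoxia and 36.5% in normoxia. By arm, both-sided summits were found in 8 of 9 chaperone genes in hypoxia and 7 of 9 in normoxia, and in the ATF6 arm at 3 of 5 genes in hypoxia and 4 of 5 in normoxia. They were found in 5 of 11 genes of the PERK and ATF4 arm and 3 of 7 of the IRE1 and XBP1 arm, the same numbers in each list.

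**Figure D2:**
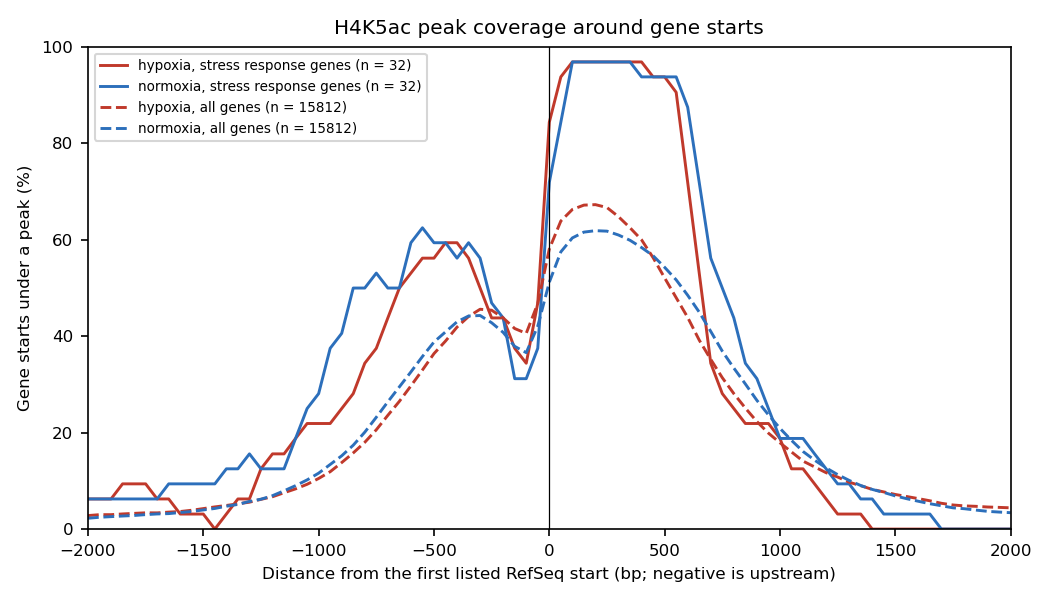
Share of gene starts under a peak (y axis, %) by distance from the first listed RefSeq start (x axis, bp), for 32 stress response genes (solid) and 15812 genes (dashed), in hypoxia and normoxia. At 250 bp downstream the stress response genes reach 96.9% in both lists, and at 100 bp upstream they drop to 34.4% in hypoxia and 31.2% in normoxia.

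The ERSE was found in the 300-base window (250 bases before to 50 after the start) of 6 of the 32 genes (18.8%), namely HSPA5, HSP90B1, CALR, CANX, ERO1B and XBP1. It was found in 19 of 15812 windows of all genes (0.120%). In the chaperone arm it was present in 5 of 9 windows, and HSP90B1 held 2. These elements are textbook features of the chaperone genes, so their presence describes the list rather than the libraries. The ERSE-II was found in HERPUD1 alone (0.0759% of all windows). The AARE was found in ASNS, CHAC1, PPP1R15B and HERPUD1, 4 of 32 genes (2.54% of all windows). The unfolded protein response element TGACGTGG was found in none of the 32 (interval 0 to 10.9%) and in 0.835% of all windows. Among 87 other genes of the same pathways, described last, 74 had a listed start. Of these 74, 7 held the element (9.46%, interval 3.89 to 18.5%).

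Whether these elements lay under a peak differed between genes and not between lists. The ERSE of HSPA5 (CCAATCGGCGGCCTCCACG, -66 to -48 from the start) lay outside the peaks of either list. It stood in the gap between a downstream peak and an upstream one. Both ERSEs of HSP90B1, that of CANX (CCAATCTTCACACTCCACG, -151 to -133) and that of CALR (-225 to -207) lay outside the peaks in the same way in both lists. So did the ERSE-II of HERPUD1 (ATTGGGCCACG, -117 to -107) and the AARE of PPP1R15B. The ERSEs of XBP1 (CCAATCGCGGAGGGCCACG, -52 to -34) and ERO1B lay inside a peak in both lists. The AAREs of ASNS (TGATGAAA, -68 to -61), CHAC1 (TTGCATCA, on the opposite strand, -209 to -202) and HERPUD1 (TTGCATCA, opposite strand, -176 to -169) also lay inside a peak in both lists. No ERSE, ERSE-II or AARE was inside a peak of 1 list and outside those of the other.

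The core of the hypoxia response element (ACGTG or GCGTG, bound by hypoxia-inducible factors) was found in 29 of 32 windows (90.6%, interval 75.0 to 98.0%), against 55.9% of all windows. Only HSPA5, ATF5 and SESN2 lacked it. The core is 5 letters long. Its reverse complement can share letters with the CCACG of an ERSE, and it is contained in TGACGTGG. The 250 bases upstream of the stress response genes also had a median GC content of 64.8%, against 62.4% over all genes, and the part of base composition in this difference was not tested. TRIB3, XBP1, ERO1A and DNAJB9 were among the 15 genes with 2 or more matches, counted on both strands and with overlapping matches kept apart. Unlike the elements above, some cores lay under a peak of 1 list alone, at XBP1, ERO1B and MBTPS1 in hypoxia and at ATF6 in normoxia. A match is a description of the letters and not a site of binding.

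The height of the peaks was compared through reads at the summit, which were solved from the deposited fold and p-value of each peak and came out as whole numbers, within 0.02, in both lists. For each gene the highest gene-end summit of each list was taken. Over 13848 genes marked in both lists, the median ratio of summit reads, hypoxia over normoxia, was 1.43 (quartiles 1.23 and 1.67), and a gene is therefore read against 1.43 and not against 1. Over the 32 stress response genes the median was 1.39, with a range of 0.905 to 3.65. Of the 32 genes, 3 had at least 2-fold more summit reads in hypoxia (9.38%), CHAC1, ASNS and CALR, against 8.67% of all genes. That share is near the background, so the set as a whole did not stand apart in summit reads. The median ratio was 1.48 in the PERK and ATF4 arm, 1.21 in the IRE1 and XBP1 arm, 1.37 in the ATF6 arm and 1.35 in the chaperone arm.

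**Figure D3:**
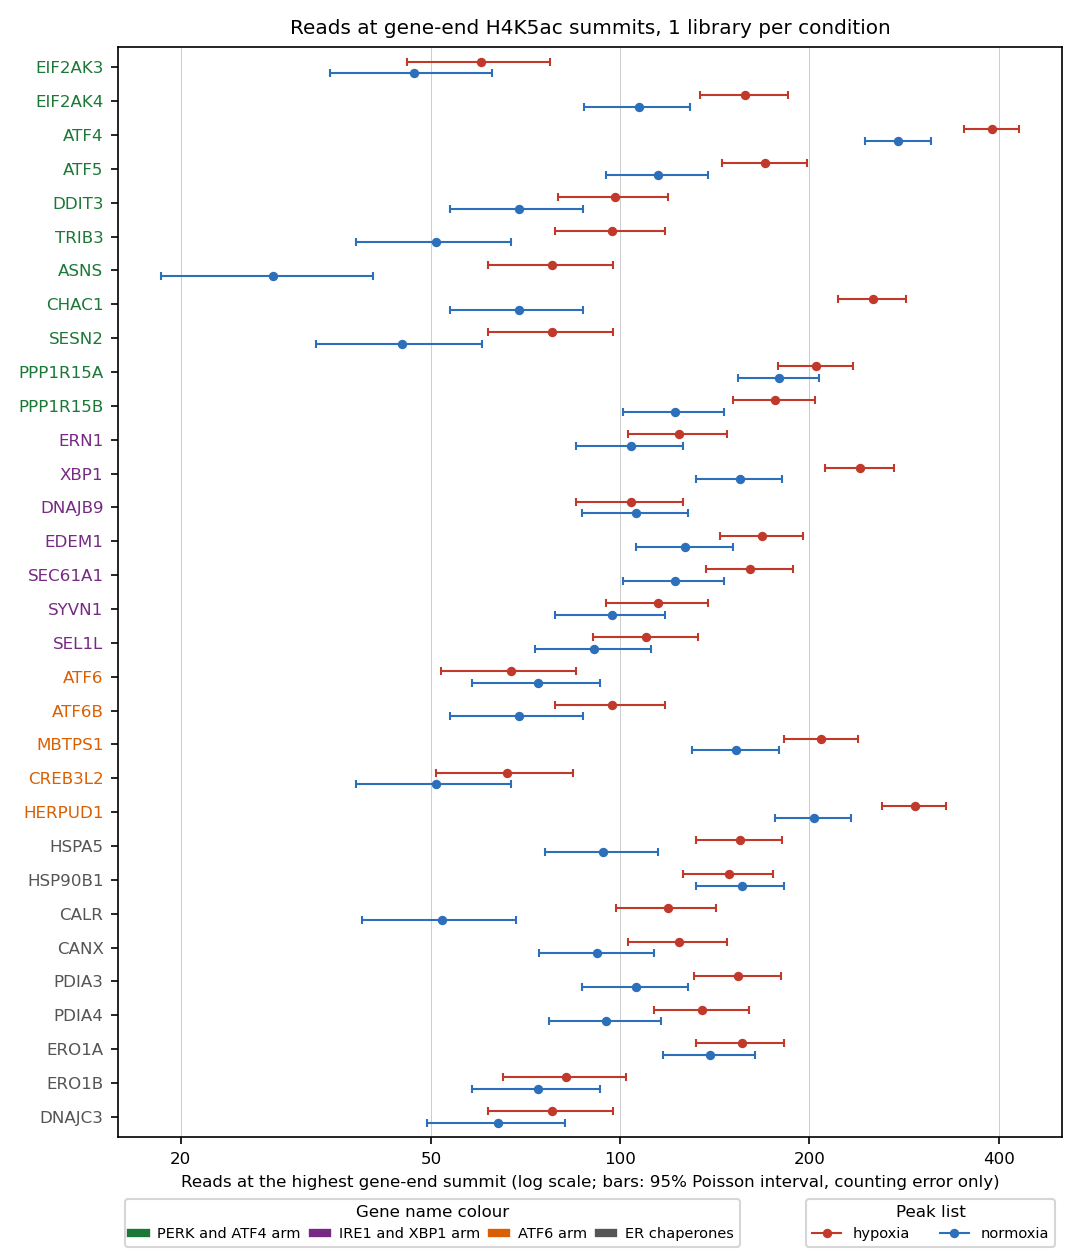
Reads at the highest gene-end summit of 32 stress response genes (x axis, log scale) in hypoxia (red) and normoxia (blue), with 95% Poisson intervals that cover counting error only, 1 library each. CHAC1, ASNS and CALR are the genes whose hypoxia point lies farthest right of the normoxia point.

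CHAC1, which encodes a glutathione-degrading enzyme downstream of ATF4, showed the widest separation among the 32 genes. Its highest summit held 252 reads in hypoxia and 69 in normoxia (ratio 3.65, interval 2.79 to 4.84). The peak spanned chr15:40952410-40953296 (hg38) in hypoxia and chr15:40952370-40953310 in normoxia, with summits at -418 and -412 bp from the start. The AARE printed above lies under it. A second peak downstream of the start held 105 reads in hypoxia and 29 in normoxia. By the first ratio CHAC1 ranked 14 of 13848 genes. The local background at that summit was 24.3 reads in hypoxia and 10.3 in normoxia, so the background differed as well, by 2.37-fold.

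ASNS, the asparagine synthetase and a textbook target of ATF4, had its first listed start 56033 bp inside the span. At that start the summit held 174 reads in hypoxia and 72 in normoxia (ratio 2.42, interval 1.83 to 3.23), at 81 and 94 bp downstream. The peak spanned chr7:97871706-97872568 in hypoxia and chr7:97871581-97872549 in normoxia, and covered the AARE printed above. The deposited fold of that peak was 17.3 in hypoxia and 10.4 in normoxia, each above the median of 7.18 and 5.95 for the best gene-end peaks of all genes in its list. The span end that set the gene-end value carried a separate peak with 78 reads in hypoxia and 28 in normoxia (ratio 2.79, interval 1.79 to 4.46). Both ASNS peaks were thus above the median ratio of all genes by more than their counting error. The local background differed as well. At the span end it was 6.34 reads in hypoxia and 3.13 in normoxia (2.03-fold), and 3.13 is the lowest background of the normoxia list. At the start it was 9.12 reads in hypoxia and 6.03 in normoxia.

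TRIB3, a pseudokinase induced by ATF4 and CHOP, had 97 summit reads in hypoxia and 51 in normoxia (ratio 1.90, interval 1.34 to 2.72). SESN2, encoding the stress-induced sestrin 2 that restrains mTORC1, had 78 reads in hypoxia and 45 in normoxia (ratio 1.73, interval 1.19 to 2.56). Both intervals include the median of 1.43, so neither can be set apart from the genome at this depth. ATF4, the transcription factor of the arm, carried the tallest summit of the 32 genes in each list, with 390 reads in hypoxia and 277 in normoxia (ratio 1.41). Its local background was also high, 63.6 reads in hypoxia and 52.8 in normoxia.

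The kinases and the feedback subunits of the same arm lay near the median of all genes or below it. EIF2AK3, which encodes PERK, had 60 reads in hypoxia and 47 in normoxia (ratio 1.28), at different peaks. Its downstream peak held 60 and 43 reads and its upstream peak 54 and 47. EIF2AK4, which encodes GCN2, had 158 reads in hypoxia and 107 in normoxia (ratio 1.48). The transcription factor genes ATF5, with 170 reads in hypoxia and 115 in normoxia, and DDIT3, which encodes CHOP, with 98 and 69, had ratios of 1.48 and 1.42. PPP1R15A and PPP1R15B encode the regulatory subunits of the phosphatase that reverses eIF2α phosphorylation. PPP1R15A had 205 reads in hypoxia and 179 in normoxia (ratio 1.15, interval 0.933 to 1.41), and its interval lies below 1.43. PPP1R15B had 176 reads in hypoxia and 122 in normoxia (ratio 1.44).

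**Figure D4:**
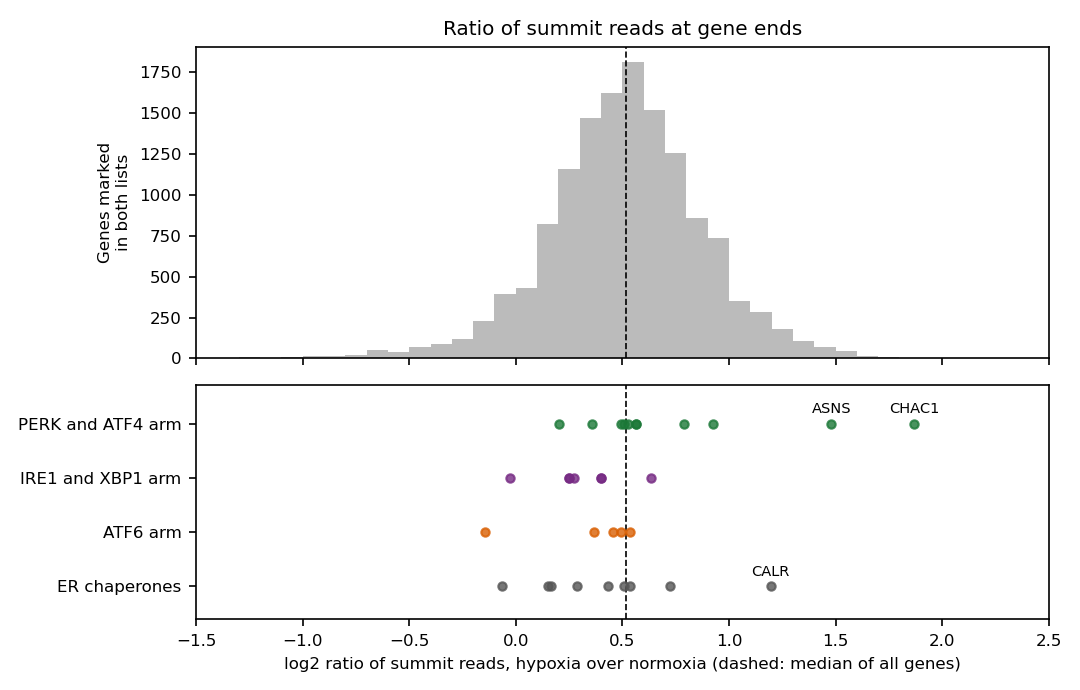
Distribution of the log2 ratio of summit reads, hypoxia over normoxia, over 13848 genes marked in both lists (upper panel, number of genes) and the 32 stress response genes by arm (lower panel, 1 point per gene). CHAC1, ASNS and CALR are the 3 genes at 2-fold or more, and most others lie on either side of the dashed median of all genes.

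In the IRE1 and XBP1 arm only XBP1 was above the median of all genes. XBP1, the transcription factor of the arm, had 241 summit reads in hypoxia and 155 in normoxia (ratio 1.55, interval 1.27 to 1.92), under peaks at chr22:28799840-28800681 and chr22:28799789-28800625. ERN1, which encodes IRE1α, had 124 reads in hypoxia and 104 in normoxia (ratio 1.19). The degradation genes followed the same pattern: the mannosidase-like EDEM1 had 168 and 127 reads (1.32), the ubiquitin ligase gene SYVN1 had 115 and 97 (1.19), and its partner SEL1L had 110 and 91 (1.21). The translocon gene SEC61A1 had 161 reads in hypoxia and 122 in normoxia (1.32). DNAJB9, a co-chaperone of BiP, had 104 reads in hypoxia and 106 in normoxia (ratio 0.981, interval 0.741 to 1.30), with an interval below 1.43.

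In the ATF6 arm, ATF6 itself had 67 summit reads in hypoxia and 74 in normoxia, the lowest ratio of the 32 genes (0.905, interval 0.641 to 1.28). Its homologue ATF6B had 97 reads in hypoxia and 69 in normoxia (1.41). MBTPS1, which encodes the site-1 protease that cleaves ATF6, had 209 and 153 (1.37). CREB3L2, which encodes a membrane-bound factor cleaved in the same manner, had 66 reads in hypoxia and 51 in normoxia (1.29). HERPUD1, an ER membrane protein of the degradation machinery, had 294 reads in hypoxia and 203 in normoxia (ratio 1.45, interval 1.21 to 1.74).

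Among the chaperone genes CALR stood highest. CALR, encoding the calcium-binding lectin chaperone calreticulin, had 119 reads in hypoxia and 52 in normoxia (ratio 2.29, interval 1.64 to 3.23). The peak spanned chr19:12938600-12939117 in hypoxia and chr19:12938648-12939225 in normoxia. Its upstream peak held 78 reads in hypoxia and 32 in normoxia, and the background at its highest summit was 16.9 reads in hypoxia and 12.0 in normoxia. HSPA5, encoding BiP, the central ER chaperone, had 155 reads in hypoxia and 94 in normoxia (ratio 1.65, interval 1.27 to 2.15), with its highest peaks at chr9:125240687-125241346 and chr9:125240660-125241326. HSP90B1, encoding GRP94, had 149 reads in hypoxia and 156 in normoxia (ratio 0.955, interval 0.758 to 1.20), below the median of all genes. Thus chaperone genes that share the ERSE lay on both sides of the median of all genes.

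CANX, the membrane-bound homologue of calreticulin, had 124 reads at its gene-end summit in hypoxia and 92 in normoxia (ratio 1.35). At its listed start, 20273 bp inside the span, it had 243 reads in hypoxia and 186 in normoxia (ratio 1.31). Of the disulfide isomerases, PDIA3 had 154 reads in hypoxia and 106 in normoxia (1.45), and PDIA4 had 135 and 95 (1.42). The oxidase genes ERO1A and ERO1B reoxidise these isomerases, and ERO1A is also a known hypoxia-responsive gene. ERO1A had 156 reads in hypoxia and 139 in normoxia (ratio 1.12, interval 0.887 to 1.42), and ERO1B had 82 and 74 (1.11). The ERO1B summits belong to different peaks: its downstream peak held 82 reads in hypoxia and 65 in normoxia, whereas its upstream peak held 51 in hypoxia and 74 in normoxia. DNAJC3, a BiP co-chaperone that also inhibits PERK, had 78 reads in hypoxia and 64 in normoxia (1.22), again at different peaks. Its downstream peak held 78 reads in hypoxia and 54 in normoxia, and its upstream peak 70 and 64.

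In total, the interval of the ratio lay above 1.43 at CHAC1, ASNS and CALR and below it at PPP1R15A, DNAJB9, ATF6, HSP90B1 and ERO1A. At the other 24 genes it included 1.43. Over all genes, the interval lay above 1.43 at 7.34% and below it at 10.4%. The 3 and 5 of 32 are to be read against those shares and were not tested against them. Within its own list, the best gene-end peak of the 32 genes together ranked above the middle, though not in every arm. The median percentile among all marked genes by −log10 q was 71.1 in hypoxia and 67.4 in normoxia, and 23 of 32 genes were above the median in each list. By arm, the median percentile was 79.6 in hypoxia and 46.5 in normoxia for PERK and ATF4. In the same order it was 71.9 and 78.0 for IRE1 and XBP1, 44.8 and 51.4 for the ATF6 arm, and 70.3 and 64.6 for the chaperones. The PERK and ATF4 medians fell on different genes, ATF5 in hypoxia (75.3 in normoxia) and CHAC1 in normoxia (94.9 in hypoxia). In that arm 7 of 11 genes were above the middle in hypoxia and 5 of 11 in normoxia. The deposited fold of the best gene-end peaks of the 32 genes, the authors' own value, had a median of 8.54 in hypoxia (range 3.37 to 12.8) and 6.78 in normoxia (range 2.91 to 8.55). DDIT3 was at the low end and SEL1L (hypoxia) and XBP1 (normoxia) at the high end.

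Around the genes, peaks were counted in the span and 10 kb either side. The 33 genes had 312 such peaks in hypoxia and 173 in normoxia. The ratio was 1.80 (interval 1.49 to 2.18), against 2.04 (interval 2.02 to 2.06) over all genes. Of these peaks, 108 were strong in hypoxia and 75 in normoxia (ratio 1.44), against 1.51 over all genes. Inside the spans alone there were 194 peaks in hypoxia and 111 in normoxia (ratio 1.75, interval 1.38 to 2.23), against 2.06 over all genes. In hypoxia 135 kb were covered, against 102 kb in normoxia (ratio 1.32), while all genes had a ratio of 1.49. When the hypoxia list was limited to its strongest peaks, so that the lists were equally long, 180 hypoxia peaks stood against 173 normoxia peaks (ratio 1.04), against a ratio of 0.993 over all genes. That limit brings the ratio of all genes near 1 by construction. Inside the spans the ratio was then 0.946 (interval 0.717 to 1.25), against 0.993 over all genes, and in covered bases 0.960, against 1.01. As deposited, the ratio of the 33 genes was below that of all genes, whose value lies inside the interval of the 33.

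**Figure D5:**
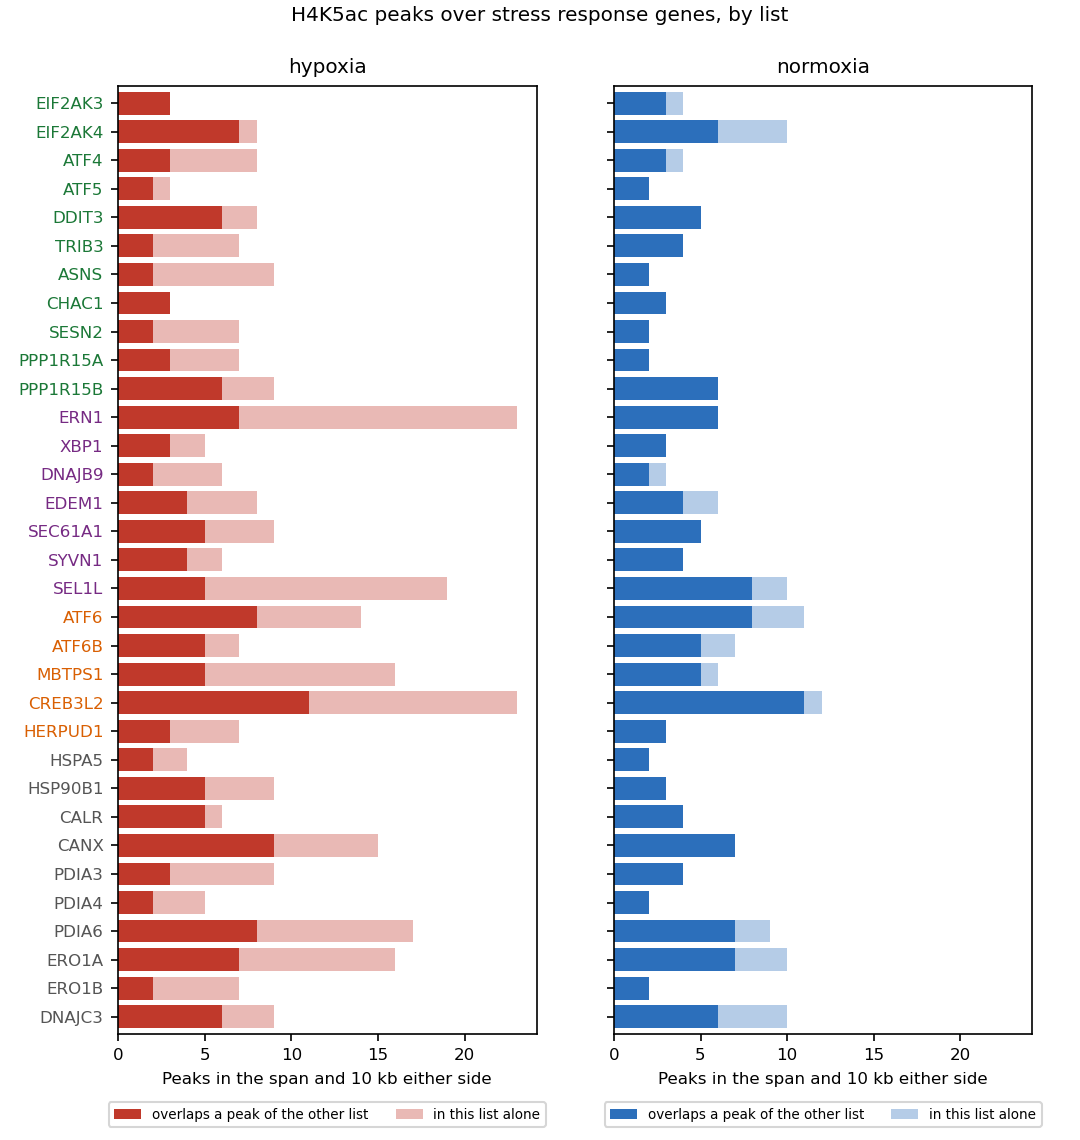
Number of peaks in the span and 10 kb either side of each of the 33 genes (x axis), hypoxia on the left and normoxia on the right, split into peaks that overlap the other list (dark) and peaks of that list alone (pale). ERN1 and CREB3L2 have 23 hypoxia peaks each, and in hypoxia the pale share is larger.

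By arm, the PERK and ATF4 genes had 72 peaks in hypoxia and 44 in normoxia (ratio 1.64), and the IRE1 and XBP1 genes had 76 and 37 (2.05). The ATF6 arm had 67 peaks in hypoxia and 39 in normoxia (1.72), and the chaperone arm had 97 and 53 (1.83). The interval of each arm includes the 2.04 of all genes. With lists of equal length the ATF6 arm had 28 hypoxia and 39 normoxia peaks, a ratio of 0.718 whose interval (0.425 to 1.20) includes the 0.993 of all genes. More hypoxia than normoxia peaks were found at 28 of the 33 genes, against 82.9% of all genes with any peak there. CHAC1 and ATF6B had equal numbers. Fewer were found at EIF2AK3 (3 in hypoxia, 4 in normoxia), EIF2AK4 (8 and 10) and DNAJC3 (9 and 10).

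ERN1 had the highest difference, with 23 peaks in hypoxia and 6 in normoxia (ratio 3.83, interval 1.52 to 11.5). Of the hypoxia peaks, 16 overlapped no normoxia peak and only 2 were strong, both at the start; 2 normoxia peaks were strong as well. With lists of equal length 10 hypoxia peaks remained at ERN1. In the 500 kb either side of ERN1 the ratio of peaks was 1.99. In the regions of SEL1L (19 hypoxia and 10 normoxia peaks) and CREB3L2 (23 and 12), the number of strong peaks differed too. It was 7 in hypoxia and 1 in normoxia at each gene. At CREB3L2 every strong hypoxia peak overlapped a normoxia peak, whereas at SEL1L some did not. Around CREB3L2 the surrounding ratio was 3.10, higher than at most of the 33 genes, which ranged from 1.46 (CALR) to 3.32 (EIF2AK3). MBTPS1 had 16 peaks in hypoxia and 6 in normoxia, with 2 strong in each list.

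Of the hypoxia peaks in these regions 48.1% overlapped a normoxia peak (interval 42.4 to 53.8%), against 35.7% over all genes. Of the normoxia peaks 84.4% overlapped a hypoxia peak (interval 78.1 to 89.5%), against 71.1% over all genes. That left 162 hypoxia peaks and 27 normoxia peaks without a partner. Of these, 6 hypoxia peaks (3.70%) and 0 normoxia peaks were strong, against 3.60% and 1.49% of the unpartnered peaks over all genes. The 6 were 3 at SEL1L (2 inside the span and 1 beyond its end), and 1 each near ATF4, PPP1R15A and HSPA5. Those near ATF4 and PPP1R15A also lie near RPS19BP1 and PLEKHA4. That at HSPA5 had its summit at -1664 bp with 56 reads, a deposited fold of 2.97 and a −log10 q of 10.3, just past the threshold. That upstream of PPP1R15A had its summit at -4536 bp with 69 reads and a −log10 q of 17.3.

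Another 87 genes of the same pathways gave a like picture in gene-end peaks and summit reads. Of these, 82 were marked in both conditions (94.3%, interval 87.1 to 98.1%), 2 in hypoxia alone, 0 in normoxia alone and 3 in neither. NUPR1, a stress-induced chromatin protein, was marked in hypoxia alone by a weak peak (deposited fold 2.73, −log10 q 5.25). CREB3L1, a relative of CREB3L2, was also marked in hypoxia alone (fold 2.51, −log10 q 2.75), although its listed start was marked in both lists. DERL3, FGF21 and CREB3L3 were marked in neither. The median ratio of summit reads over the 82 genes was 1.41, and 5 (6.10%) had at least 2-fold more in hypoxia, again near the 8.67% of all genes. Those 5, named after their values were seen, were STC2, DDIT4, PHGDH, ERN2 and SEC31A. At the low end, EIF2B1, also named after its value was seen, had 98 reads in hypoxia and 155 in normoxia (ratio 0.632, interval 0.486 to 0.819). STC2, a secreted glycoprotein induced by ER stress and hypoxia, had 202 reads in hypoxia and 78 in normoxia (ratio 2.59, interval 1.98 to 3.41).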

How the data were processed

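H4K5ac ChIP-seq peaks of FaDu cells were analysed in hypoxia (1 library) and normoxia (1 library), sequenced single-end at 75 bp, as the labels' protocols state. Per the submitters' processing notes, MACS2 and SICER were run on hg38; versions, settings and controls were not given in the sources used here. The authors deposited 1 list per library, so peaks were called per sample. Each deposited peak has an integer score, a fold (a ratio to local background), −log10 p- and q-values, and the offset of its summit in bases. Overlap means at least 1 shared bp. Gene spans, starts and promoter sequences came from RefSeq (GRCh38.p14, the assembly that hg38 names); exons, introns and UTRs were not distinguished.

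Summit reads k and background b were solved from fold = (k + 1) / (b + 1) and p as the Poisson tail above k, an assumption about the caller. They came out whole for 100.00% of hypoxia peaks and 100.00% of normoxia peaks solved. Only peaks were deposited, so signal below the calling threshold is unknown. Summit reads depend on library depth and fragment length, and are therefore set against all genes. Intervals are 95% Clopper-Pearson for shares, conditional exact for ratios and exact Poisson for reads; reads without molecular identifiers are not independent molecules. Python 3.11.15, pandas 2.3.3, numpy 2.4.6 and scipy 1.17.1 were used, and the overlap, solving and motif steps were tested on simulated data.

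The 33 genes and the lists were chosen with earlier results of these data known. All 33 are named whatever their values, and so are other pathway genes marked in 1 condition alone or in neither. Alternatives were a −log10 q of at least 10 (at least 20 for strong peaks), equal list lengths, windows of 500 and 2000 bp, summits in place of overlaps, RefSeq starts, stitching of peaks within 500 bp, and, added after the data were seen, overlapping strongest peaks, reads above background and start summits for the read ratios.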

Additional observations from a re-analysis of the deposited data

How the results depend on the processing

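The number of genes marked in both conditions was 32 of 33 at a −log10 q of at least 10, with equal list lengths, with 500 and 2000 bp windows and by summits. By RefSeq starts it was 32 of 32, without PDIA3, which has no listed start, and with PDIA6. With the 2000 bp window PDIA6 was no longer marked in neither: 1 gene was marked in hypoxia alone and 0 in neither, and with RefSeq starts 0 were in neither. Other pathway genes marked in hypoxia alone numbered 3 at a −log10 q of at least 10, 1 with equal list lengths and 0 with RefSeq starts, against 2. The share of all genes marked in hypoxia only was 6.91% at a −log10 q of at least 10, 5.69% with equal lengths, 10.8% and 12.5% with 500 and 2000 bp windows, and 9.94% with RefSeq starts, against 11.7%. Peak ratios depended on list length. With equal list lengths, which bring the ratio of all genes to 0.993 by construction, the ratio in the spans was 0.946 and of covered bases 0.960, both reversed, and within 10 kb it was 1.04 over all 33 genes, 1.05 in the PERK and ATF4 arm, 1.27 in the IRE1 and XBP1 arm, 0.718 in the ATF6 arm (reversed) and 1.11 in the chaperone arm. At a −log10 q of at least 10 the ratio was 1.44 over all 33 genes and 1.23 in the chaperone arm, and that of covered bases was 1.09. These lists are shorter by construction. At a −log10 q of at least 20, 32 genes had a strong gene-end peak in hypoxia and 26 in normoxia, against 59.3% and 49.2% of all genes. Of 70 values, 50 kept their direction and stayed within 1.5 times for counts or within the interval or quartiles of the reported value for the rest. The number of genes at 2-fold or more summit reads was 3 or 4 under the alternatives. No paired analysis was possible because each condition has 1 library and no result comes from a test.

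Depth limits these results: read totals are not given, only called peaks were deposited, and with 1 library per condition a difference between cultures, fragment lengths or immunoprecipitations cannot be told apart from hypoxia.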
